A study of Mus musculus with 2 samples.

Results

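CTCF binding was examined in 2 stretches of the mouse genome chosen for the globin gene clusters, in V6.5 mouse embryonic stem cells. The alpha-globin window ran over 350 kb of chromosome 11, from 32000000 to 32350000 (build mm8), and the beta-globin window over 700 kb of chromosome 7, from 103300000 to 104000000. Both were set by position, with earlier results of these data known. They held 24 of the 34781 CTCF regions of the genome, 19 in the alpha-globin window and 5 in the beta-globin window. A region is a stretch in which ChIP reads passed an exact Poisson test against the genome average or the nearby control, whichever was higher. The study compared 1 ChIP library, DNA precipitated with CTCF, with 1 library of whole-cell extract, which is sonicated chromatin that was not precipitated. Both came from the same male line of genotype 129SvJaexC57BL/6, which had been grown on feeder cells and moved to gelatin to free it of them. Precipitated and control DNA were amplified by PCR before sequencing. Reads show where DNA lay and not which genes were expressed, so the cell type was taken from the labels and was not checked.

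CTCF is a zinc-finger protein that binds a long, GC-rich motif, can block an enhancer from a promoter and holds the ends of chromatin loops. Globins carry oxygen in red blood cells. The alpha-like genes (Hba-x in the embryo, Hba-a1 and Hba-a2 in the fetus and adult) and the beta-like genes (Hbb-y and Hbb-bh1 in the embryo, Hbb-b1 and Hbb-b2 or their counterparts Hbb-bt and Hbb-bs in the adult, depending on the strain) lie in separate clusters. Each cluster is driven in red-cell precursors by enhancers at a distance, called the locus control region at the beta-like genes. In embryonic stem cells the globin genes are not in use. Sites flanking the mouse beta-globin cluster are textbook examples of CTCF sites that meet in a loop.

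The surroundings of the clusters differ in kind. In the RefSeq gene table of build GRCm38.p6, the 20 nearest entries on each side of the beta-globin block held 38 olfactory receptor genes or pseudogenes among 40, and those around the alpha-globin block held 0 among 40. The entries before Hba-x were Snrnp25, Rhbdf1, Mpg and Nprl3, the last of which carries the main alpha-globin enhancers in its introns. Sh3pxd2b, which codes for an adaptor protein, lay on the other side of the alpha-like genes. Hbb-b1 and Hbb-b2 were listed apart from the beta-globin block. Positions of these genes in mm8 were not used here. In the GRCm38.p6 table the clusters fall within the same numbers as the window bounds. Whether they also do in mm8, the build of the reads, was not tested. That the genes lie inside the windows is therefore not established here, "alpha-globin" and "beta-globin" serve as names of the windows, and no region below is assigned to a gene or to a known site.

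Sequence was available for the DNA just upstream of some of these genes and bears on what a read of 36 bases can show there. The RefSeq promoter table (GRCm38.p6) held 4 of the 7 genes Hba-a1, Hba-a2, Hba-x, Hbb-b1, Hbb-b2, Hbb-y and Hbb-bh1, and also Hbb-bs, Hbb-bt and Hbb-bh2. The 250 bases before the start are given for Hba-a1 and Hba-a2 (plus strand) and for Hbb-bs and Hbb-bt (minus strand). They run 5′ to 3′ along each gene. In these bases the first pair shares nearly all runs of 36 bases, and the second pair shares none. Only promoters were searched for such runs, not the genome. Capitals mark the longest run that the 2 genes of a pair share.
Hba-a1: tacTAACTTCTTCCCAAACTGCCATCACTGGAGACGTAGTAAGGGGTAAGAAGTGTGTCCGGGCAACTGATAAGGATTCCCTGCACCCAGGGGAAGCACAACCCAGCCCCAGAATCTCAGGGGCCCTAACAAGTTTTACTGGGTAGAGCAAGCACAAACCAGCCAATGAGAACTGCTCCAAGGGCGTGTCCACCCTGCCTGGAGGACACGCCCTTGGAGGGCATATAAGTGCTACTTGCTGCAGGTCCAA
Hba-a2: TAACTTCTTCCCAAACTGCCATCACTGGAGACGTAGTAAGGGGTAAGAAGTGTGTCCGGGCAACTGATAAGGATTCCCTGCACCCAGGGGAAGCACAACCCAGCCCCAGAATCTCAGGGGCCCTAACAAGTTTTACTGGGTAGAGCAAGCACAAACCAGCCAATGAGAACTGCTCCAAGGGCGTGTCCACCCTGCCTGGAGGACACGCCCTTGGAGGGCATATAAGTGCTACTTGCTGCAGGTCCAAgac
Hbb-bs: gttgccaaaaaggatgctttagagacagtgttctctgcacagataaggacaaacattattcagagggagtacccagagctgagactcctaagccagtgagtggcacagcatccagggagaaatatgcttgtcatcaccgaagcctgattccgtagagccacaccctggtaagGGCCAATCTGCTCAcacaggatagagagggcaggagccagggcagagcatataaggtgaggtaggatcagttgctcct
Hbb-bt: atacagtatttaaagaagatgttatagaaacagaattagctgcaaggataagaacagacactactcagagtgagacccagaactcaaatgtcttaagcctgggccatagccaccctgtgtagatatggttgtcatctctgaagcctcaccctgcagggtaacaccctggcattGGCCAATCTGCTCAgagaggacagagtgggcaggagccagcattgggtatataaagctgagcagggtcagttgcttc

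Hba-a1 and Hba-a2 shared 247 bases without a difference, and Hbb-bs and Hbb-bt shared at most 14. Of the 215 runs of 36 bases upstream of Hba-a1, 212 also occurred in the promoter of Hba-a2, and for Hba-a2 all 215 occurred in that of Hba-a1. Upstream of Hba-x, Hbb-y, Hbb-bs, Hbb-bt and Hbb-bh2, 0 of 215 occurred in another promoter of the table. How the aligner treated reads with several possible places is not given in the sources used here, so read counts at the adult alpha-globin genes are uncertain. The core consensus of CTCF, searched on both strands over 300 bases around each start, was found in 0 of these 7 globin promoters and in 0.557% (183) of the 32851 promoters of the table. No match says only that these letters are not in this window.

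The libraries held 2371134 ChIP reads in 1 lane and 4691104 extract reads in 2 lanes, with 0 repeats of a position and strand in either. On chromosomes 1 to 19, X and Y they gave 0.901 ChIP reads and 1.78 extract reads per kb. Extract counts were multiplied by 0.506, the ratio of the library totals on those chromosomes. With 1 library per group there was no replicate check. Tests on reads compare these libraries, and all intervals (95%, exact) cover counting error only.

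The alpha-globin window was rich in ChIP reads and the beta-globin window poor. The first held 879 ChIP reads and 901 extract reads, a ChIP-to-extract ratio of 1.93 (1.76 to 2.12). The second, although 2-fold longer, held 327 ChIP reads and 801 extract reads, a ratio of 0.807 (0.708 to 0.919). A ratio below 1 here depends on the scaling: with the extract scaled by 10-kb bins poor in ChIP reads, the beta-globin ratio was 1.66 and the alpha-globin ratio 3.96. Per kb this was 2.51 ChIP reads (2.35 to 2.68) against 0.467 (0.418 to 0.521), a 5.38-fold difference (4.73 to 6.12). The extract itself differed in the same direction, with 2.57 reads per kb in the alpha-globin window and 1.14 in the beta-globin window (2.25-fold, 2.04 to 2.48). Set against the extract, the difference between the windows was 2.39-fold (2.03 to 2.81; Fisher's exact test on the reads of the 2 libraries, two-sided, p = 5.04e-28).

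**Figure D1:**
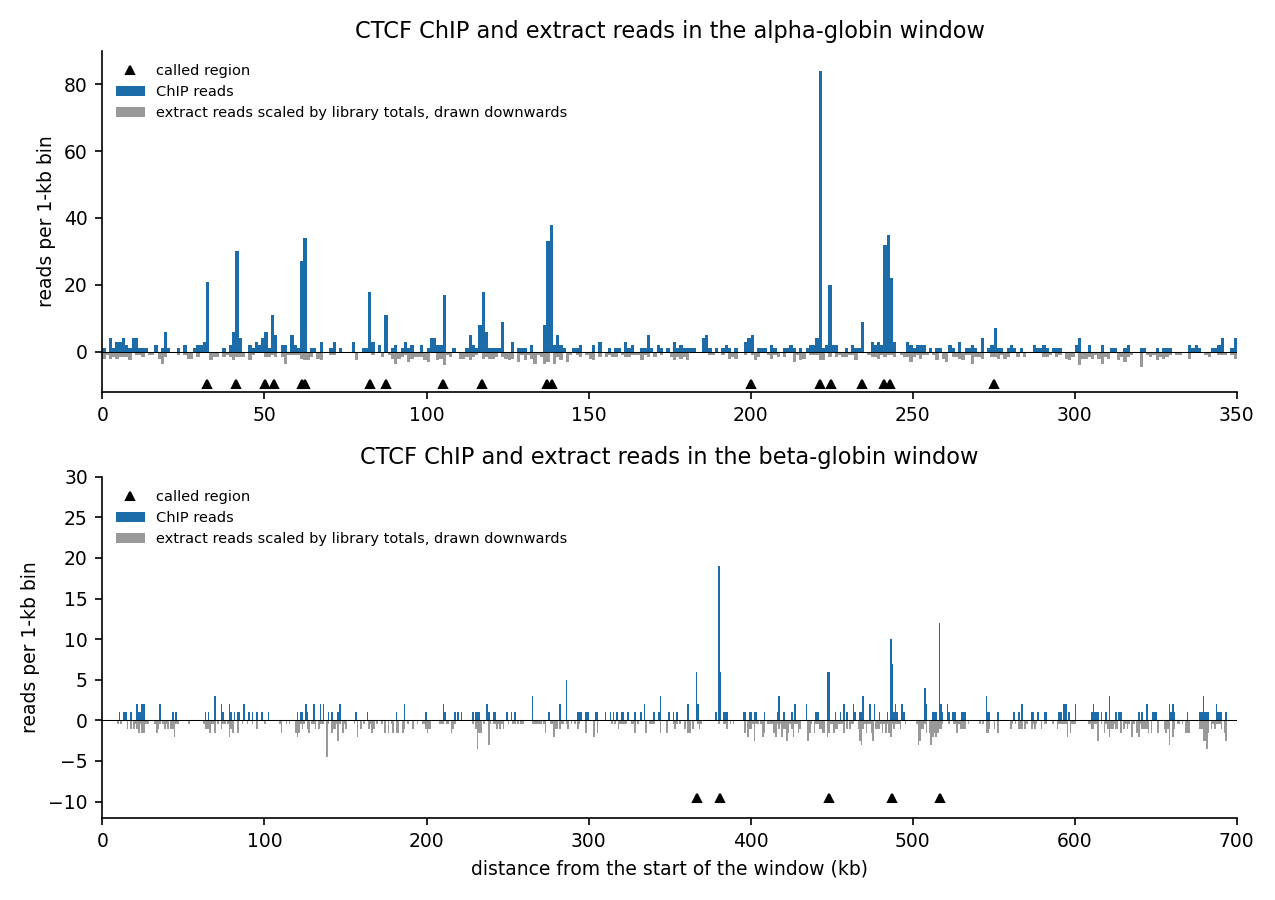
Reads per 1-kb bin (vertical axis, reads) against the distance from the start of each window (horizontal axis, kb), with ChIP reads upwards, scaled extract reads downwards and triangles at the 19 and 5 called regions. The highest bin holds 84 ChIP reads in the alpha-globin window and 19 in the beta-globin window, and the vertical axes of the panels differ.

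Most 1-kb bins of the beta-globin window held no ChIP read. It had 499 of 700 bins (71.3%) without a ChIP read, 298 (42.6%) without an extract read and 248 (35.4%) without a read of either library. In the alpha-globin window these were 127 (36.3%), 36 (10.3%) and 13 (3.71%) of 350 bins. The longest run of bins empty in both libraries was 9 kb in the beta-globin window and 2 kb in the alpha-globin window. The share of sequence to which a read can be assigned was not measured, and its part in the lower counts of the beta-globin window was not tested.

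CTCF regions were called over the whole genome in windows of 200 bp, after each read had been moved towards its 3′ end, to about the middle of its fragment. A window passed at an adjusted p under 0.001 and at least 5 times the expected count. Of all 200-bp windows with a ChIP read, 2.95% passed. In the alpha-globin window 103 of 1551 passed (6.64%), above that share, and in the beta-globin window 20 of 1021 (1.96%), below it. These windows overlap one another, and the differences from the genome were not tested.

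The 19 regions of the alpha-globin window gave 5.43 regions per 100 kb (3.27 to 8.48), and the 5 regions of the beta-globin window gave 0.714 (0.232 to 1.67). The ratio of these densities was 7.6 (2.75 to 26). Per 1000 extract reads, which allows for the lower extract counts of the beta-globin window, the densities were 21.1 and 6.24 regions, a ratio of 3.38 (1.22 to 11.6). Chromosome 11 as a whole had 2.17 regions per 100 kb and 10.2 per 1000 extract reads, chromosome 7 had 1.66 and 9.75, and the genome had 1.32 and 7.42. The alpha-globin density therefore lay above that of its chromosome by both measures. The interval of the beta-globin density per 1000 extract reads (2.03 to 14.6) included the value of chromosome 7, and that per 100 kb just reached it.

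Regions took 50.9% of the ChIP reads of the alpha-globin window (447 of 879, 47.5 to 54.2) and 18.3% of those of the beta-globin window (60 of 327, 14.3 to 23). They covered 2.29% and 0.25% of the bases and held 2.44% (22) and 0.25% (2) of the extract reads. Outside the regions and their 1-kb flanks the ratio of ChIP to extract was 0.852 (0.748 to 0.97) in the alpha-globin window, from 335 and 777 reads. In the beta-globin window it was 0.642 (0.555 to 0.741), from 255 and 785 reads. Regions were called for an excess of ChIP over extract, so a lower ratio outside them follows in part from the calling. Outside the regions the windows differed 1.33-fold (1.09 to 1.61; Fisher's exact test, two-sided, p = 0.00372). The reads left may include sites too weak to be called, which this comparison cannot tell from background. It was chosen after seeing the data.

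Within the alpha-globin window the regions were numbered 1 to 19 in the order of their position. The strongest was region 14, from 32221101 to 32221700, with 82 ChIP reads and 4 extract reads. That is 34.6 ChIP reads per 1000000 reads of the library (RPM, 27.5 to 42.9) and a 40.5-fold ratio (15.2 to 152). It held more reads than 99.6% of the CTCF regions of the genome, while the median region of the genome had 15. Next came region 18, from 32242701 to 32243250, with 53 ChIP reads and 0 extract reads. It reached 22.4 RPM (16.8 to 29.2) and was at least 27.4-fold higher in ChIP by the lower limit of the exact interval. Set against 3 extract reads, a floor chosen for counts of 0, its 53 reads were 34.9-fold higher, which is not a lower limit. The same pair of values is given for other regions without extract reads. Regions were called for an excess of ChIP in the same reads, so the ratios and limits given for them are raised by that choice.

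Of the next 4 regions by reads, 3 lay in close pairs. At region 6 (32062151 to 32062650) there were 33 ChIP and 2 extract reads, a ratio of 32.6 (8.34 to 281). Its neighbour, region 5 (32061401 to 32061900), had 23 and 2, a ratio of 22.7 (5.62 to 199). With summits 750 bp apart they were the closest pair of the window. The stretch between them was 0.25 kb, just over the 200 bp within which passing windows were joined. Other joining distances were not tried. Region 12 (32138451 to 32138900) had 33 and 1, a ratio of 65.2 (10.9 to 2654). Region 11 (32137001 to 32137450) had 29 and 3, a ratio of 19.1 (5.92 to 98). These also formed a pair, with summits 1450 bp apart. Region 2 (32041001 to 32041500) stood alone, with 28 ChIP reads, 0 extract reads and a ChIP level at least 14-fold higher (18.5-fold against 3 extract reads). Region 17, from 32241051 to 32241550, was level with it at 28 reads, with 2 extract reads (ratio 27.7, 6.98 to 240), and its summit lay 1650 bp from that of region 18.

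The weakest regions of the alpha-globin window, 3 and 19, held 6 ChIP reads each. Region 3, from 32049951 to 32050150, had 1 extract read (11.9-fold, 1.44 to 546). Region 19, from 32275051 to 32275300, had 0, and was at least 2.33-fold higher in ChIP (3.95-fold against 3 extract reads). Of the 19 regions, 9 held at least 20 ChIP reads, 5 held fewer than 10, and the median was 17, as over all regions of chromosome 11. This window thus lay above its chromosome in the density of regions and not in their median reads. In 8 of the 19 there was no extract read, and all 19 had reads of both strands.

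**Figure D2:**
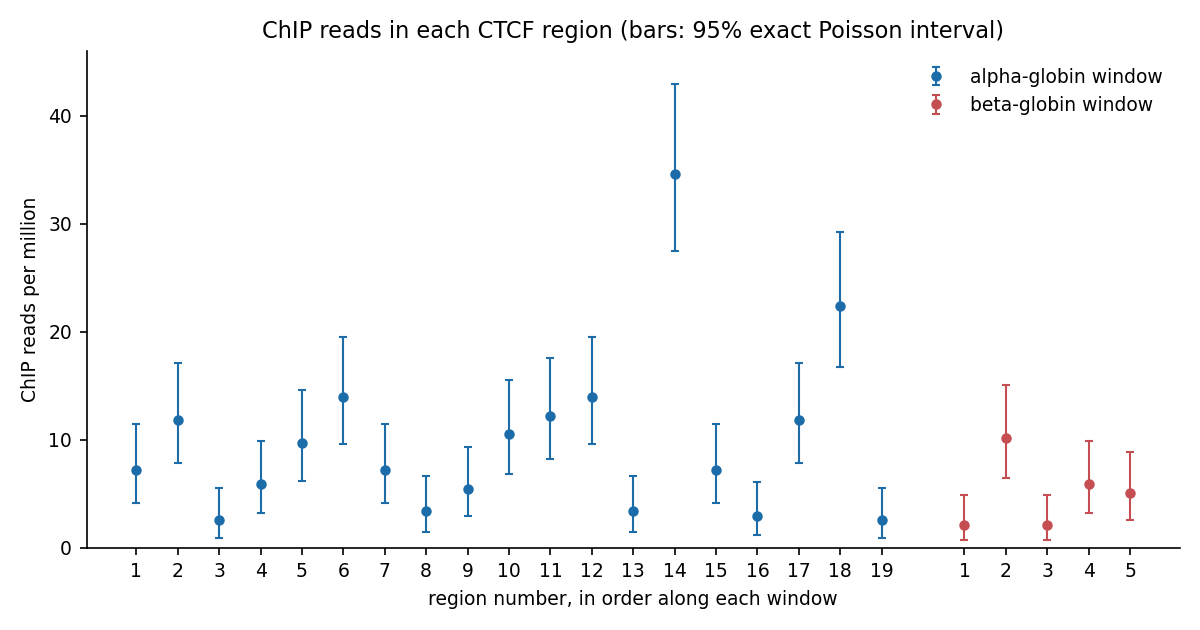
ChIP RPM (vertical axis) in each called region, numbered along each window (horizontal axis), with exact Poisson 95% intervals as bars. Regions 14 and 18 of the alpha-globin window, at 34.6 and 22.4 RPM, stand above the other 17 and above the 5 regions of the beta-globin window, of which region 2 is highest at 10.1 RPM.

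All 5 regions of the beta-globin window lay past its midpoint. Region 2, from 103680701 to 103681200, was the strongest, with 24 ChIP reads and 0 extract reads. It reached 10.1 RPM (6.49 to 15.1) and was at least 11.9-fold higher in ChIP (15.8-fold against 3 extract reads). It held more reads than 72.1% of the regions of the genome, and its RPM interval lay below that of region 14 of the alpha-globin window. Region 4 (103786801 to 103787200) had 14 ChIP reads and 1 in the extract, a ratio of 27.7 (4.21 to 1170). Its ChIP reads were 10 plus and 4 minus, and some other regions with few reads were split at least as unevenly by strand. Region 5 (103816601 to 103817000) had 12 and 1, a ratio of 23.7 (3.51 to 1014). These 3 regions were called under every one of 13 other settings.

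The remaining regions of the beta-globin window were at the limit of detection. Region 1, from 103666701 to 103666900, and region 3, from 103748401 to 103748650, each held 5 ChIP reads and 0 extract reads, at least 1.81-fold higher in ChIP (3.29-fold against 3 extract reads). Where the expected count was the genome average, 5 reads in 200 bp were the fewest that could pass under the reported threshold. The fullest 200-bp window of region 1 held 27.7 times its expected count. That of region 3 held 16.5 times, as nearby extract reads had raised its expected count above the genome average. Region 1 was called in 10 of the 13 other settings and region 3 in 7. In the alpha-globin window 16 of 19 regions were called in all 13 settings, and the others, regions 3, 13 and 19, in 11, 12 and 9. Regions called in every setting thus numbered 3 in the beta-globin window and 16 in the alpha-globin window. All settings reused the same ChIP library, and a looser threshold cannot lose a region. The counts therefore describe how the calls depend on the settings and are not independent support.

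The median distance between neighbouring summits was 8.82 kb in the alpha-globin window and 34.1 kb in the beta-globin window. Of the 18 neighbouring pairs of the alpha-globin window, 6 (33.3%) lay within 5 kb, against 20.7% of the pairs on chromosome 11 and 16.8% in the genome. Of the 4 pairs in the beta-globin window, 0 lay within 5 kb, against 19.1% on chromosome 7, and the closest summits, those of regions 1 and 2, were 14150 bp apart. These shares rest on 18 and 4 pairs, and their differences from the chromosomes were not tested.

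Long stretches of both windows held no region. In the alpha-globin window the longest ran from 32275301 to its end, 74.7 kb with 58 ChIP and 185 extract reads (ratio 0.62, 0.453 to 0.837). There was no 1-kb bin with more than 4 ChIP reads in it. The next, of 60.95 kb between regions 12 and 13, had 69 and 138 reads (0.988, 0.729 to 1.33). It was not poor in extract reads, with 2.26 per kb. The beta-globin window had no region over its first 366.7 kb, where 118 ChIP and 341 extract reads gave a ratio of 0.684 (0.55 to 0.846) and the fullest 1-kb bin held 5 ChIP reads. A second stretch of 183 kb followed region 5, with 78 and 220 reads (0.701, 0.534 to 0.911). The extract had 0.93 reads per kb in the first of these and 1.2 in the second, below the 1.7 of chromosome 7. Sites with fewer than 5 reads in 200 bp cannot be called at this depth under the reported threshold.

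In blocks of 50 kb the signal was uneven. The fifth block of the alpha-globin window, from 32200000 on, held 258 ChIP and 128 extract reads, a ratio of 3.98 (3.21 to 4.96), with 5 regions. The first, the second and the third block had ratios of 2.07, 2.48 and 2.22 with 2, 6 and 4 regions. The seventh block had 40 and 130 reads, a ratio of 0.608 (0.416 to 0.873), with 0 regions. The interval of the fifth block lay above those of all other blocks of the window. In the beta-globin window the eighth of 14 blocks, from 103650000 on, was highest, with 44 and 35 reads, a ratio of 2.49 (1.56 to 3.99) and 2 regions. Block ratios use the scaling by library totals, and a smaller factor raises them all alike.

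Single 1-kb bins were also counted without the caller. They reuse the same reads, scaling and 5-fold minimum, so a similar picture follows in part and is not independent support. A bin was counted where it held at least 5 ChIP reads and at least 5 times the larger of the genome average and its own scaled extract reads. This held for 1.51% of all bins of the genome, for 19 of 350 bins of the alpha-globin window (5.43%) and for 6 of 700 bins of the beta-globin window (0.857%). Among bins touching a called region, 9 of 26 in the alpha-globin window and 3 of 8 in the beta-globin window did not pass. Of the 19 passing bins 17 touched a called region, and of the 6 passing bins 5 did. The bins that touched none held 9 ChIP and 3 extract reads (from 32123000) and 5 and 1 reads (from 32186000) on chromosome 11, and 5 and 1 reads (from 103586000) on chromosome 7.

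Reads lay around the summits in the order of fragments centred on a point. In the alpha-globin window 215 plus-strand 5′ ends within 300 bp of the 19 summits had a median of 93 bp before the summit, and 241 minus-strand ends a median of 96 bp after it, an offset of 189 bp. In the beta-globin window 27 plus-strand ends lay a median of 126 bp before and 34 minus-strand ends 105 bp after the 5 summits, an offset of 231 bp. Summits were placed with the same reads, so this is a description. Per 50 bp around the alpha-globin summits there were at most 59 plus-strand ends and 6 extract ends, the latter of both strands.

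**Figure D3:**
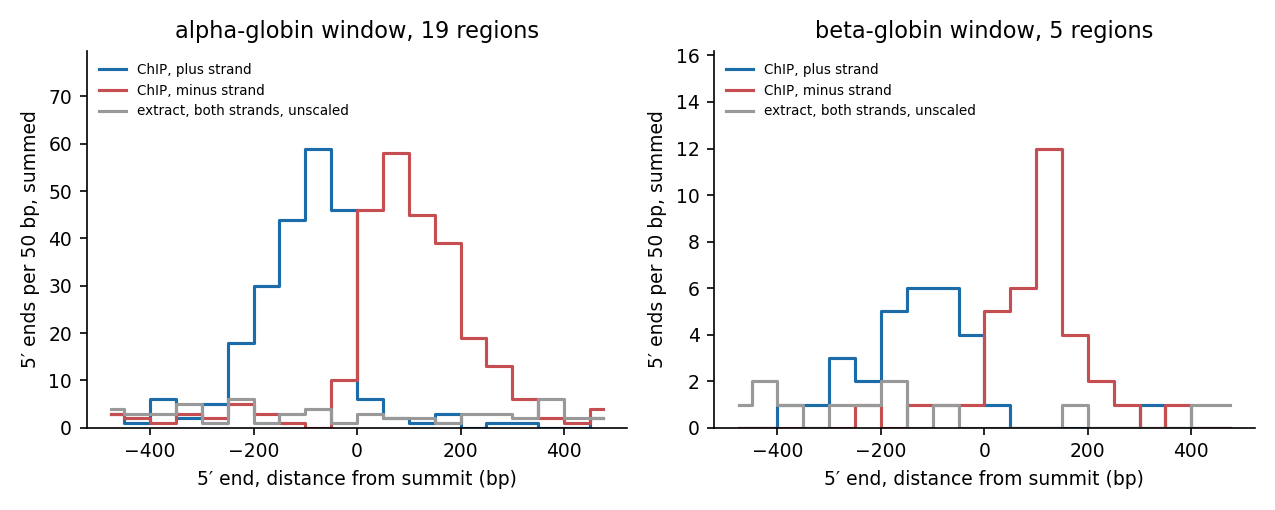
Number of 5′ ends per 50 bp (vertical axis), summed over the 19 and 5 regions, against the distance from the summit (horizontal axis, bp), for ChIP reads of each strand and for unscaled extract reads. Plus-strand ends peak before the summits and minus-strand ends after them, with medians 189 bp apart in the alpha-globin window and 231 bp apart in the beta-globin window.

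To place the windows on their chromosomes, adjoining windows of the same length were laid out in both directions and kept where at least 50% of the 1-kb bins held a read. On chromosome 11, 312 of 338 windows (92.3%) held fewer regions than the alpha-globin window, 5 held as many and 21 held more. The median was 7 regions and the highest count was 26. By the ratio of ChIP to extract 324 of the 338 were lower, and by extract reads alone 252 were lower. The alpha-globin window was thus among the windows of chromosome 11 with many regions, although not the richest, and its extract reads were closer to the middle.

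On chromosome 7, 41 of 172 windows (23.8%) held fewer regions than the beta-globin window, 10 held as many and 121 held more. The median was 12 regions, and 6 windows had 0. By the ratio 45 of the 172 were lower, but by extract reads alone 16 were lower, with a median of 1490 extract reads per window. The minimum of covered bins itself removes windows low in reads. Without it, 68 of 205 windows held fewer regions and 48 had fewer extract reads. The beta-globin window was thus in the lower part of its chromosome by regions, and nearer to the lower end by extract reads. These ranks describe windows that share a chromosome and both libraries, and they are not tests.

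The stretches adjoining each of the windows were compared as well. Before the alpha-globin window lay 350 kb with 330 ChIP reads, 882 extract reads and 2 regions (ratio 0.74), and after it 350 kb with 557 and 983 reads and 11 regions (1.12). Extract reads there were close to the 901 of the alpha-globin window, and ChIP reads were fewer. Before the beta-globin window lay 700 kb with 235 and 691 reads and 2 regions (0.672), and after it 700 kb with 340 and 725 reads and 5 regions (0.927). The beta-globin window, with 327 and 801 reads and 5 regions, had more ChIP reads and regions than the window before it and as many regions as the one after. These differences were not tested.

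**Figure D4:**
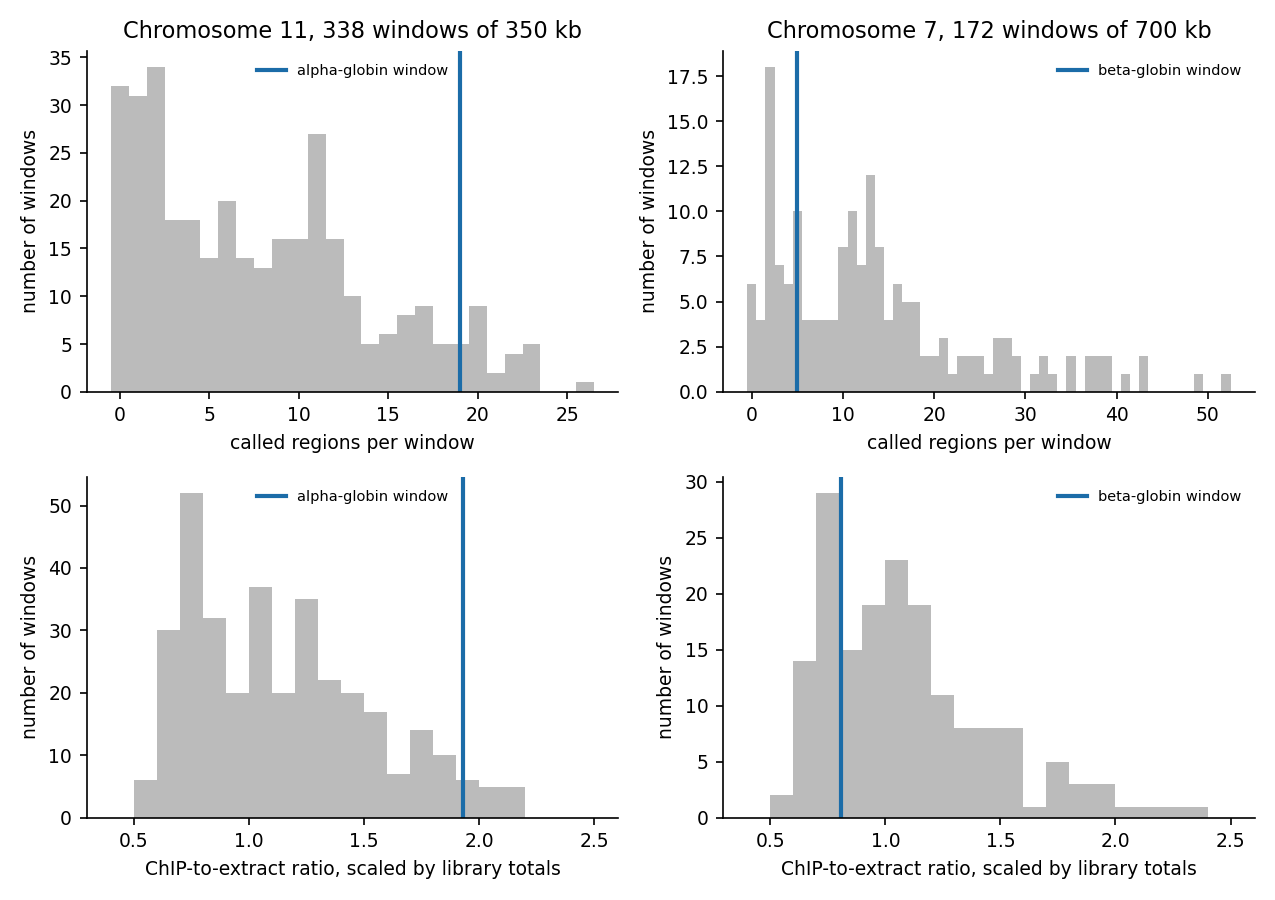
Number of windows (vertical axes) by called regions per window (top) and by the ChIP-to-extract ratio (bottom), for 338 windows of 350 kb on chromosome 11 (left) and 172 windows of 700 kb on chromosome 7 (right). Blue lines mark the alpha-globin window, at 19 regions and a ratio of 1.93, and the beta-globin window, at 5 regions and a ratio of 0.807.

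In proportion to the reported 19 and 5 regions, the number called varied more with the settings in the beta-globin window. In absolute terms it varied more in the alpha-globin window. Over 13 other settings it ran from 16 to 25 in the alpha-globin window and from 3 to 7 in the beta-globin window. The lowest value of the beta-globin window, 3, came from an adjusted p under 1e-06. In each setting the alpha-globin window had more regions, although it was 2-fold shorter.

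**Figure D5:**
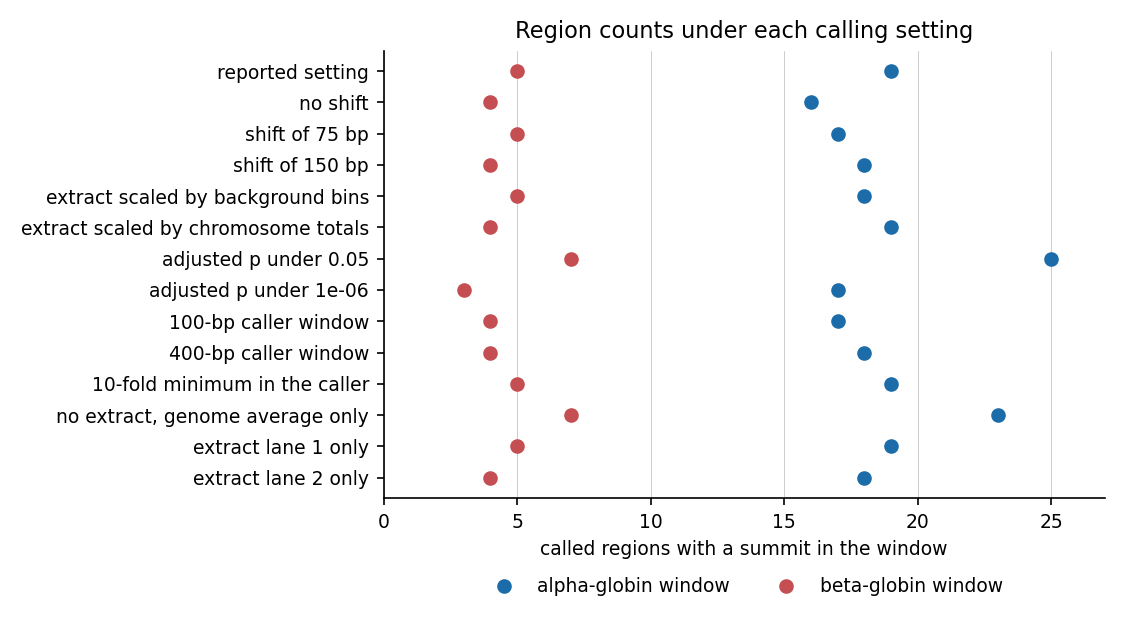
Called regions with a summit in each window (horizontal axis) under the reported setting and 13 others (vertical axis). The alpha-globin window keeps 16 to 25 regions and the beta-globin window 3 to 7, with no overlap between them.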

How the data were processed

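One library of CTCF ChIP DNA and one of whole-cell extract were analysed. The authors deposited aligned reads, 1 line per read with chromosome, start, end and strand, in build mm8 per the submitters' processing notes. Which aligner and filters were used is not given in the sources used here. Each position and strand occurs once in each library, so copies made by PCR cannot be counted. Positions are printed counted from 1, taking the deposited starts as counted from 0, which no source states, so they may be off by 1 bp.

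Reads were moved 102 bp towards 3′ and counted with Python 3.11.15, numpy 2.4.6, scipy 1.17.1 and pandas 2.3.3. On chromosomes 1 to 19, X and Y, 200-bp windows at 50-bp steps were tested for excess ChIP reads with exact Poisson probabilities. Expectation came from the genome average (0.18 reads) or from the scaled extract within 1, 5 or 10 kb, whichever was highest. Benjamini-Hochberg adjustment covered all 6352472 windows that had a ChIP read, and passing windows within 200 bp were joined. A region belongs to a window by its summit. The caller was tested on simulated data.

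In full are given, for each window, the 6 regions with the most ChIP reads and the weakest. The longest stretch without a region and the closest pair are given too. Any region whose ratio interval reached 1 was also to be given. There was none, which calling regions for an excess of ChIP made likely. The windows, the calling rule and the gene names were chosen with earlier results of these data known.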

Additional observations from a re-analysis of the deposited data

How the results depend on the processing

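Other read shifts, extract scalings, calling thresholds, bin lengths and window bounds were tried, as were each extract lane alone and reads outside regions, the last 2 chosen after seeing the data. The density ratio of the windows stayed between 6.57 and 11.3 (reported as 7.6). The ratio of their ChIP-to-extract ratios stayed between 1.33 (outside regions) and 2.57 (reported as 2.39). Scaling the extract by 10-kb bins poor in ChIP reads applies the same factor to both windows and so could not move that ratio. Fisher's exact test on the reads gave p at most 0.00372 in each setting, leaving out chromosome totals, for which no p is given here. Region counts of the alpha-globin window stayed within 1.5 times 19, and those of the beta-globin window did except at an adjusted p under 1e-06, which gave 3. With the extract scaled by background bins (10-kb bins with no more than the median number of ChIP reads, a choice that lowers the factor to 0.246), the ratio rose to 3.96 in the alpha-globin window and to 1.66 in the beta-globin window, the latter turning from below to above 1, and 29 bins passed in the alpha-globin window. Whether the beta-globin window was depleted thus depends on the scaling. Scaled by chromosome totals, the ratios were 1.59 and 0.706. Outside regions they were 0.852, turning below 1, and 0.642. Without 50 kb at each end, the alpha-globin ratio was 2.17. A 3-fold minimum gave 29 bins in the alpha-globin window. In the beta-globin window 2-kb bins gave 3 and a 10-fold minimum 2. Without the minimum of covered bins, 33.2% of the windows of chromosome 7 had fewer regions than the beta-globin window, against 23.8%. The cause of these shifts was not tested. Search for motifs inside regions was not run, as it needs the mm8 genome. Sites with fewer than 5 ChIP reads in 200 bp could not be called at this depth under the reported threshold. No replicate could be left out and no fit with pairs could be made. No paired analysis was possible because there was 1 library per group.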
